A study of Homo sapiens with 18 samples.

Results

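Translation initiation factors are the proteins that assemble a ribosome at the start codon of an mRNA. The 42 genes described here were taken by symbol and cover eIF1 and eIF1A (3 genes), the eIF2 subunits (3), the eIF2B subunits (5), the eIF3 subunits (13), the eIF4 group (8), eIF5, eIF5B, eIF6 and ABCE1 (4) and a remainder of other start-site factors (6). All 42 had an entry among the 17017 genes counted. The cells were MDA-MB-231, an established human line of triple-negative breast carcinoma, transduced with lentivirus and kept under puromycin. They carried a scramble control hairpin (label SC) or 1 of a pair of hairpins against the mRNA of fibrillarin (labels SH2 and SH3). Fibrillarin, gene symbol FBL, is the nucleolar enzyme that adds 2'-O-methyl groups to ribosomal RNA. Which of SH2 and SH3 is the protocols' KD1 and which KD2 is not stated in the labels. All groups shared the line, the transduction and cycloheximide before lysis, and no cloning of the selected cells is described. Each treatment had 3 libraries of cytoplasmic input RNA (IN, called RNA below) and 3 of ribosome-protected footprints (RPF), 18 libraries in all, and the labels do not say whether replicates were separate cultures, so p-values measure only the spread between these libraries.

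In the textbook order of events, eIF2 carries the initiator tRNA to the small ribosomal subunit, where eIF1, eIF1A, eIF3 and eIF5 join it, and eIF2B reloads eIF2 with GTP between rounds. The eIF4 factors bind the cap at the mRNA's 5′ end, unwind the leader and bring the subunit to it, and eIF5B joins the large subunit. Several initiation factor mRNAs, among them those of eIF3 subunits and of eIF4B, are reported in the literature to begin with a terminal oligopyrimidine (TOP) tract, the leader that ribosomal protein mRNAs also carry and through which the mTOR pathway sets their translation.

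FBL RNA stood at 395, 349 and 421 CPM (each count over the TMM-scaled library total of its kind, times 1000000) in SC, 1.26, 4.52 and 11.2 in SH2 and 3.36, 4.15 and 2.95 in SH3, so the labels of the targeted gene held in all 9 RNA libraries. The RNA libraries held 23469830 to 27629488 counts each and the footprint libraries 1662705 to 6098648. The line's mesenchymal markers were well counted, with VIM RNA at 5579 ± 605 CPM in SC (SD, n = 3), and so was CD44 at 316 ± 77.4. AXL and CAV1 were also counted in every library. ESR1 and PGR, markers of hormone receptor positive cells, reached 0.0412 and 0.0816 CPM at most in RNA. CDH1 reached 0.449 CPM at most. The epithelial keratin KRT8 stood at 529.9 ± 37.2 CPM in SC, GATA3 at 8.03 ± 0.487 and EPCAM at 5.66 ± 0.670.

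A change is called here when its Benjamini-Hochberg adjusted p over all genes tested, from edgeR's quasi-likelihood test, was under 0.05. Of the 41 members tested in RNA, 28 were called in SH2 against SC, 14 higher and 14 lower, where 61.4% of 12710 genes were called (31.1% higher and 30.4% lower). Against SC, 24 of 41 were called in SH3, 12 of them higher and 12 lower, against 53% of all genes (27.8% higher and 25.2% lower). In footprints 18 of 41 members were called in SH2, 9 of them higher (background 44.2% of 10345 genes, 21% higher and 23.2% lower), and 16 in SH3, 10 of them higher (background 35.9%, 16.9% higher and 19% lower). These shares lie near the background, and the median member changed by -0.06 in SH2 RNA (0.01 over all genes) and 0.15 in SH3 RNA (0.03 over all genes) on the log2 scale. In footprints the medians were 0.06 in SH2 and 0.10 in SH3, beside 0.00 and -0.01 over all genes. The factors thus divided into members that rose and members that fell, with no common direction. In a bulk lysate, fewer cells that express a gene and less RNA per cell cannot be told apart.

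**Figure D1:**
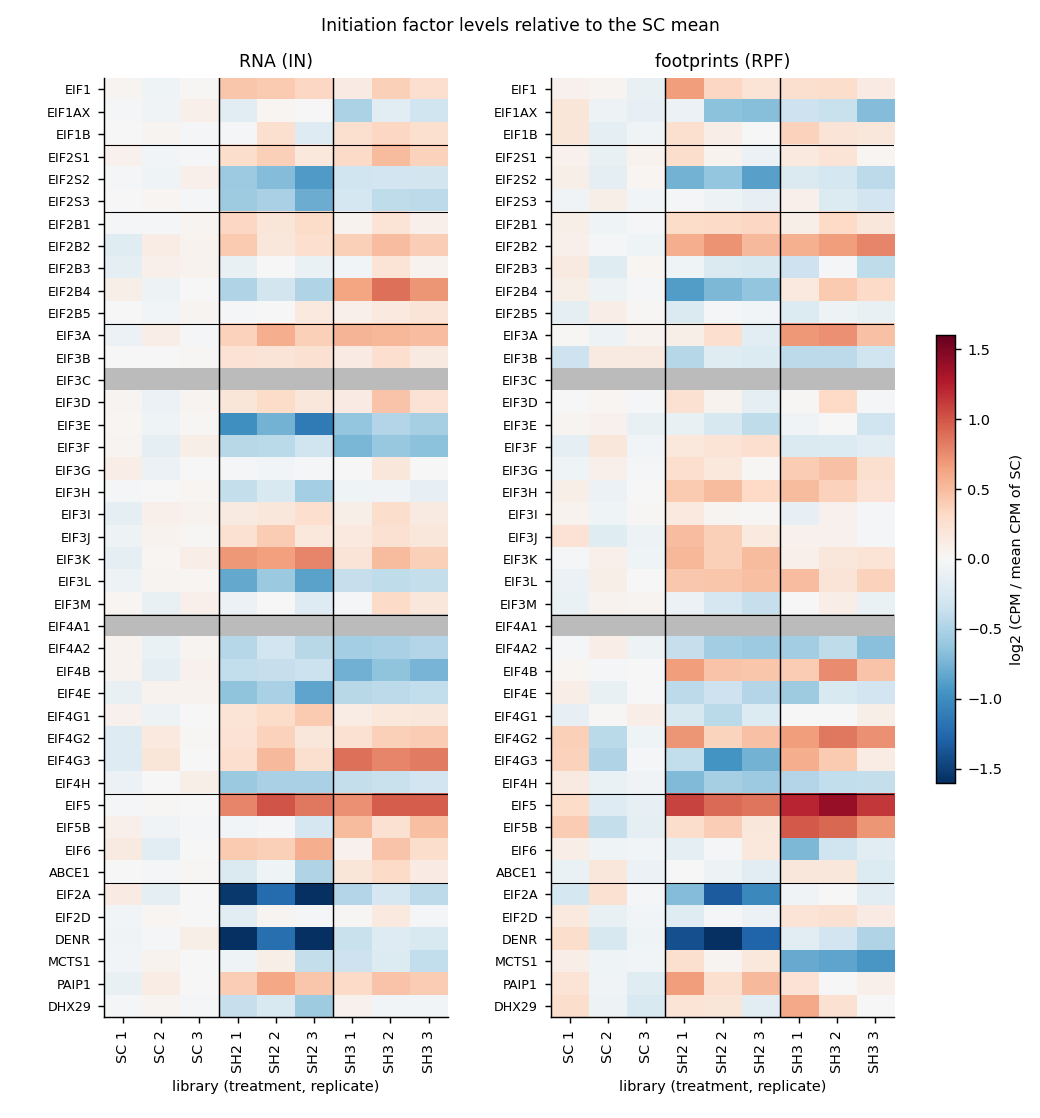
Levels of the 42 initiation factors in each of the 18 libraries, as log2 of the CPM over the mean of the 3 SC libraries, RNA on the left and footprints on the right, with lines between role groups and grey for EIF3C and EIF4A1, which had too few counts. EIF5 is red in all hairpin libraries of both kinds, DENR and EIF2A are dark blue in SH2, and EIF3L and EIF4B are blue in RNA and red in footprints.

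Translational efficiency, the footprint change beyond the RNA change, was called in 7 of 41 members in SH2, 5 higher and 2 lower, where 3.9% of 12531 genes were called (1.44% higher and 2.46% lower). The higher members were EIF3E, EIF3F, EIF3H, EIF3L and EIF4B, and the lower ones EIF4G1 and EIF4G3. In SH3 2 members were called, both higher, EIF3L and EIF4B, where 0.686% of genes were called (0.375% higher). At an unadjusted p under 0.05 there were 13 members in SH2 and 10 in SH3, where 17.9% and 12.6% of all genes stood. The median member's efficiency moved by 0.01 in SH2 and -0.02 in SH3 (-0.02 and -0.04 over all genes). All 7 members called belong to eIF3 or to the eIF4 group, which hold 13 and 7 of the 41 members tested in efficiency. Of the 3 eIF2 and 5 eIF2B subunits 0 were called, groups too small to set apart from the 3.9% of all genes called in SH2. At an unadjusted p under 0.05 there was 1 eIF2 subunit (EIF2S3) in SH2 and 1 eIF2B subunit (EIF2B4) in SH3. SH2 and SH3 share their SC libraries, so a chance value in SC enters the changes of each. In simulated data the efficiency test called 29.5% of genes with a log2 change of 1 in SH2 and 30.5% in SH3. A member without a call is therefore not shown to be unchanged in efficiency.

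**Figure D2:**
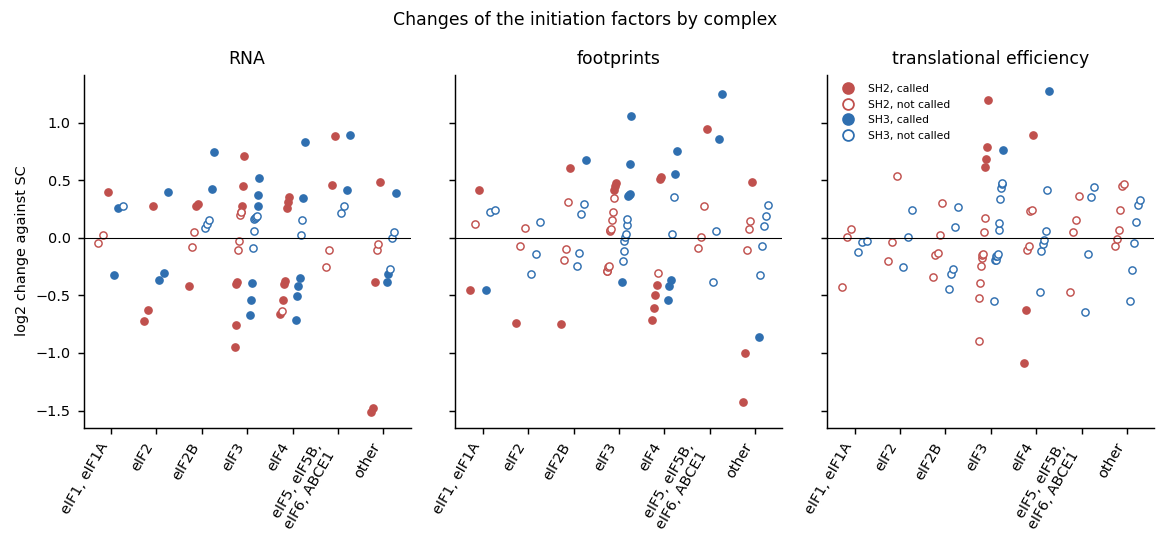
Log2 change against SC of each member in RNA, footprints and translational efficiency, by role group, with SH2 in red and SH3 in blue. Filled points are called and open points are not, and the called efficiency changes lie in the eIF3 and eIF4 columns alone.

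The eIF2 complex has 3 subunits, and RNA of all 3 was called with each hairpin, where 61.4% of all genes were called in SH2 and 53% in SH3. EIF2S1 encodes the alpha subunit, whose phosphorylation by stress kinases lowers initiation. EIF2S1 RNA stood at 210.1, 194 and 198 CPM in SC, 244, 261 and 226 in SH2 and 249, 285 and 259.5 in SH3, with every hairpin library above SC, and rose by 0.28 (SE 0.09, edgeR adjusted p 0.0172) for SH2 and 0.40 (SE 0.09, edgeR adjusted p 0.0025) for SH3. The SH2 call was lost without SC replicate 2, SC replicate 3 or SH2 replicate 2 (adjusted p up to 0.061). EIF2S1 footprints stood at 393, 345 and 389.7 CPM in SC, 455, 392 and 353 in SH2 and 419, 436 and 384 in SH3, where the groups overlapped, and the log2 changes of 0.09 in SH2 and 0.14 in SH3 were not called.

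EIF2S2 encodes the beta subunit, which contacts eIF5 and eIF2B. Its RNA stood at 389, 374 and 417 CPM in SC, 264, 242 and 209 in SH2 and 316, 318 and 319 in SH3, lowest in SH2 and without overlap between any groups. It fell in both, with log2 changes of -0.72 (SE 0.10, edgeR adjusted p 2.54e-05) for SH2 and -0.31 (SE 0.10, edgeR adjusted p 0.0166) for SH3. EIF2S2 footprints, at 745, 634 and 715 CPM in SC, 415, 454 and 382 in SH2 and 596, 572 and 522 in SH3, had the same order, with -0.74 (SE 0.13, edgeR adjusted p 0.000241) for SH2 and -0.31 (SE 0.13, edgeR adjusted p 0.0647) for SH3. The SH3 footprint change was called with a replicate block (-0.31, edgeR adjusted p 0.0457). The SH3 RNA call was lost without SC replicate 3. The direct comparison of SH2 with SH3 was called in RNA (-0.41, edgeR adjusted p 0.00436) and in footprints (-0.43, edgeR adjusted p 0.0212, lost in 4 of 14 alternatives). EIF2S3, the gamma subunit that binds GTP and the initiator tRNA, fell in RNA but not in footprints. EIF2S3 RNA was counted at 89.7, 92.1 and 87.9 CPM in SC, 60.5, 62.7 and 51.9 in SH2 and 74.2, 67.5 and 67.0 in SH3, log2 changes of -0.62 (SE 0.10, edgeR adjusted p 7.7e-05) for SH2 and -0.37 (SE 0.10, edgeR adjusted p 0.00501) for SH3. EIF2S3 footprints at 64.9, 72.0 and 65.2 CPM in SC, 65.9, 63.9 and 61.5 in SH2 and 71.4, 57.9 and 54.7 in SH3 overlapped across groups, and its efficiency change in SH2 was 0.54 (SE 0.16, edgeR adjusted p 0.0549). The beta and gamma subunits were therefore lower in RNA with each hairpin while the alpha subunit was higher.

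eIF2B, the exchange factor whose 5 subunits are encoded by EIF2B1 to EIF2B5, showed 3 called members in SH2 RNA (2 higher, 1 lower) and 2 in SH3 RNA (both higher), where 61.4% and 53% of all genes were called. EIF2B2, the beta subunit of the regulatory core, rose in RNA and in footprints. RNA levels of EIF2B2 were 52.9, 65.4 and 62.6 CPM in SC, 80.6, 68.3 and 72.8 in SH2 and 78.7, 84.6 and 79.2 in SH3 and its footprints at 74.2, 69.1 and 67.1 CPM in SC, 105, 115 and 100.4 in SH2 and 104, 112 and 121 in SH3, with every hairpin library above every SC library in both. The log2 changes in RNA were 0.29 (SE 0.10, edgeR adjusted p 0.024) for SH2 and 0.42 (SE 0.10, edgeR adjusted p 0.00347) for SH3 and in footprints 0.61 (SE 0.13, edgeR adjusted p 0.00163) for SH2 and 0.68 (SE 0.13, edgeR adjusted p 0.00107) for SH3. The RNA call in SH2 was lost without SC replicate 1, SH2 replicate 1 or SH2 replicate 3, and in a fit of the compared groups alone.

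EIF2B4, the delta subunit, moved in opposite directions with the hairpins. EIF2B4 RNA was counted at 48.4, 42.8 and 45.2 CPM in SC, 32.7, 37.0 and 32.5 in SH2 and 70.6, 83.9 and 74.2 in SH3, so that SH2 lay below SC and SH3 above it without overlap. The changes were -0.42 (SE 0.10, edgeR adjusted p 0.00295) for SH2 and 0.75 (SE 0.10, edgeR adjusted p 4.27e-05) for SH3, and SH2 against SH3 gave -1.16 (SE 0.10, edgeR adjusted p 2.03e-06). Its footprints stood at 60.1, 53.5 and 55.6 CPM in SC, 30.4, 34.3 and 36.3 in SH2 and 62.6, 75.3 and 69.4 in SH3, with changes of -0.75 (SE 0.15, edgeR adjusted p 0.000855) for SH2 and 0.30 (SE 0.15, edgeR adjusted p 0.124) for SH3 and a difference between hairpins of -1.04 (SE 0.15, edgeR adjusted p 0.000176). EIF2B5, the catalytic epsilon subunit, was not called in any of these comparisons. RNA levels of EIF2B5 were 126, 122 and 131 CPM in SC, 124, 126 and 141 in SH2 and 134, 141 and 146 in SH3, its footprints at 138, 163 and 153 CPM in SC, 128, 148 and 147 in SH2 and 131, 143 and 139.5 in SH3, and its RNA changes were 0.05 in SH2 and 0.15 in SH3. EIF2B1 RNA rose in SH2 (0.27 (SE 0.09, edgeR adjusted p 0.0144)), a call lost without SH2 replicate 1, and its footprint change in SH2 of 0.31 (SE 0.12, edgeR adjusted p 0.0519) was called with a replicate block (adjusted p 0.0437). EIF2B3 was not called in RNA or footprints with either hairpin.

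Of the small factors that hold the ribosome open for scanning, EIF1 RNA rose. It stood at 499, 463 and 494 CPM in SC, 661, 649.8 and 609 in SH2 and 532, 629.7 and 584 in SH3, all hairpin libraries above SC, with changes of 0.40 (SE 0.09, edgeR adjusted p 0.00185) for SH2 and 0.26 (SE 0.09, edgeR adjusted p 0.0273) for SH3. The SH3 call was lost without SC replicate 2, SC replicate 3, SH3 replicate 2 or SH3 replicate 3. EIF1 footprints stood at 748, 735 and 657 CPM in SC, 1131, 900.0 and 827 in SH2 and 849, 869 and 783 in SH3, again with no overlap with SC, and were called in SH2 alone (0.42 (SE 0.14, edgeR adjusted p 0.0201); lost without SC replicate 3 or SH2 replicate 1). EIF1B, its close paralog, stood at 31.6, 32.9 and 31.0 CPM in SC, 31.4, 38.0 and 27.7 in SH2 and 37.9, 40.0 and 38.1 in SH3 in RNA and was called with neither hairpin. Every SH3 library lay above SC, and the SH3 change was called with a replicate block (0.28, edgeR adjusted p 0.0286). EIF1AX, the X-linked eIF1A gene, had footprints of 254, 209.8 and 202 CPM in SC, 208, 141 and 139 in SH2 and 177, 174 and 137 in SH3, with SH2 replicate 1 inside the SC range. The footprint changes were -0.45 (SE 0.17, edgeR adjusted p 0.0404) for SH2 and -0.45 (SE 0.17, edgeR adjusted p 0.0497) for SH3, and these calls were lost in 7 and 9 of 14 alternatives. EIF1AX RNA stood at 86.9, 84.8 and 93.3 CPM in SC, 78.1, 90.04 and 88.9 in SH2 and 62.2, 78.5 and 70.9 in SH3, with SH3 below SC. Its RNA fell in SH3 (-0.32 (SE 0.10, edgeR adjusted p 0.0172)), a call lost without SC replicate 3 or SH3 replicate 1, and changed by -0.04 in SH2. SH2 against SH3 gave 0.28 (SE 0.10, edgeR adjusted p 0.0454) in RNA, lost in 7 of 14 alternatives.

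eIF3 is the largest initiation factor. It binds the small subunit and, through its EIF3E, EIF3C and EIF3D subunits, eIF4G, and it keeps the subunits apart. Of its 12 subunits tested in RNA, 8 were called in SH2 (EIF3A, EIF3B, EIF3J and EIF3K higher, EIF3E, EIF3F, EIF3H and EIF3L lower) and 6 in SH3 (EIF3A, EIF3D and EIF3K higher, EIF3E, EIF3F and EIF3L lower), shares near the background of 61.4% and 53%. In footprints 3 of 13 were called in SH2, all higher (EIF3H, EIF3K and EIF3L), a share under the background of 44.2%. Footprint calls in SH3 numbered 6, with EIF3A, EIF3C, EIF3G, EIF3H and EIF3L higher and EIF3B lower (background 35.9%). The 4 subunits with lower RNA in SH2 are the 4 whose efficiency was called higher in SH2, and since RNA is the denominator of efficiency these calls are not independent of each other.

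EIF3L, a subunit attached to the outer edge of the complex, had RNA of 173, 188 and 188 CPM in SC, 104, 121 and 101 in SH2 and 141, 138 and 140.0 in SH3 and footprints of 142, 161 and 152 CPM in SC, 204, 207 and 211 in SH2 and 214, 175 and 196 in SH3. Every hairpin library lay below SC in RNA and above SC in footprints. The log2 changes in RNA were -0.75 (SE 0.09, edgeR adjusted p 1.05e-05) for SH2 and -0.39 (SE 0.09, edgeR adjusted p 0.0029) for SH3. Footprints rose, by 0.45 (SE 0.13, edgeR adjusted p 0.00896) for SH2 and 0.36 (SE 0.13, edgeR adjusted p 0.0385) for SH3. Translational efficiency was higher by 1.2 (SE 0.14, edgeR adjusted p 0.000167) for SH2 and 0.76 (SE 0.14, edgeR adjusted p 0.0132) for SH3, the highest of the 41 members in SH2. The SH2 efficiency call held in all 14 alternatives. The SH3 call was lost without SC replicate 3 (adjusted p 0.0971), SH3 replicate 1 (0.072), SH3 replicate 2 (0.075) or SH3 replicate 3 (0.0922), and with a replicate block (0.0634). The SH3 footprint call was lost in 6 of 14 alternatives.

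EIF3H, a subunit of the complex's lobed core, had RNA of 437, 449 and 458 CPM in SC, 344, 377 and 307 in SH2 and 428, 429 and 408 in SH3 and footprints of 516, 453 and 478 CPM in SC, 643, 685 and 599.6 in SH2 and 686, 621 and 566 in SH3. Here too RNA lay below SC and footprints above SC in every hairpin library. RNA changed by -0.39 (SE 0.09, edgeR adjusted p 0.00248) for SH2 and -0.09 (SE 0.09, edgeR adjusted p 0.452) for SH3, so only SH2 was called, and footprints by 0.41 (SE 0.13, edgeR adjusted p 0.0138) for SH2 and 0.37 (SE 0.13, edgeR adjusted p 0.0304) for SH3. The efficiency changes were 0.79 (SE 0.15, edgeR adjusted p 0.00474) for SH2 and 0.47 (SE 0.15, edgeR adjusted p 0.151) for SH3, and the SH2 call held in all 14 alternatives. The footprint calls did not, the SH2 one being lost without SH2 replicate 2 and the SH3 one without SC replicate 2, SC replicate 3, SH3 replicate 1 or SH3 replicate 2. The SH2 minus SH3 efficiency difference was 0.32 (95% interval 0.03 to 0.61, edgeR adjusted p 0.407), so the hairpins were not called different.

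EIF3E, at the contact with eIF4G, had the deepest SH2 RNA fall of the 12 eIF3 subunits tested. Its RNA stood at 820.0, 765 and 813 CPM in SC, 407, 473 and 364 in SH2 and 522, 579 and 553 in SH3, with changes of -0.95 (SE 0.10, edgeR adjusted p 3.69e-06) for SH2 and -0.54 (SE 0.10, edgeR adjusted p 0.000647) for SH3 and a difference between hairpins of -0.41 (SE 0.10, edgeR adjusted p 0.00635). EIF3E footprints stood at 817, 835 and 730.4 CPM in SC, 734, 663 and 599.6 in SH2 and 765, 801 and 637 in SH3, overlapping between groups, and were not called (-0.25 in SH2 and -0.11 in SH3). Its efficiency was higher by 0.68 (SE 0.16, edgeR adjusted p 0.0224) for SH2 and 0.44 (SE 0.16, edgeR adjusted p 0.236) for SH3. The SH2 efficiency call was lost without SC replicate 3 (adjusted p 0.11), SH2 replicate 1 (0.0999) or SH2 replicate 3 (0.0687), and in a fit of the compared groups alone (0.0554).

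EIF3F, the partner of EIF3H in the core, had RNA of 398, 349 and 413 CPM in SC, 284, 286 and 311 in SH2 and 233, 254 and 244 in SH3, lower with each hairpin and lowest in SH3, where its fall was the deepest of the 12 subunits tested, with changes of -0.40 (SE 0.09, edgeR adjusted p 0.00206) for SH2 and -0.67 (SE 0.09, edgeR adjusted p 5.43e-05) for SH3. EIF3F footprints stood at 376, 475 and 409 CPM in SC, 471, 490.4 and 506 in SH2 and 358, 361 and 373 in SH3, with changes of 0.22 in SH2 and -0.20 in SH3 that were not called. Its efficiency changes were 0.61 (SE 0.14, edgeR adjusted p 0.0192) for SH2 and 0.48 (SE 0.14, edgeR adjusted p 0.128) for SH3. The SH2 call was the least stable of the 7, lost in 7 of 14 alternatives, among them the fits without SC replicate 1, without SC replicate 3 and without any of the 3 SH2 replicates (adjusted p 0.0575 to 0.106). With a replicate block it was 0.61 (edgeR adjusted p 0.0678).

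EIF3A, the largest subunit and scaffold of the complex, rose in RNA with each hairpin, and in footprints with SH3. EIF3A RNA was counted at 449, 519 and 473 CPM in SC, 622, 719 and 628 in SH2 and 702, 692 and 675 in SH3, changes of 0.45 (SE 0.09, edgeR adjusted p 0.000893) for SH2 and 0.52 (SE 0.09, edgeR adjusted p 0.000394) for SH3. EIF3A footprints stood at 1382, 1294 and 1418 CPM in SC, 1457, 1639.9 and 1206 in SH2 and 2201, 2273 and 1895 in SH3, where SH2 overlapped SC and SH3 lay above both. The footprint changes were 0.07 (SE 0.13, edgeR adjusted p 0.692) for SH2 and 0.64 (SE 0.13, edgeR adjusted p 0.00182) for SH3, and SH2 against SH3 gave -0.57 (SE 0.13, edgeR adjusted p 0.00658). EIF3K, which pairs with EIF3L, moved opposite to it in RNA. EIF3K RNA stood at 158, 180.0 and 189 CPM in SC, 285, 278 and 301 in SH2 and 202, 250.2 and 228 in SH3, changes of 0.71 (SE 0.10, edgeR adjusted p 4.11e-05) for SH2 and 0.37 (SE 0.10, edgeR adjusted p 0.00755) for SH3, the latter lost without SH3 replicate 2. EIF3K footprints rose in SH2 (0.48 (SE 0.12, edgeR adjusted p 0.00502)) and its efficiency was not called (-0.25 in SH2 and -0.19 in SH3). EIF3B efficiency changed by -0.52 (edgeR adjusted p 0.0701) in SH2 and -0.55 (edgeR adjusted p 0.12) in SH3, neither called. EIF3A efficiency changed by -0.39 (edgeR adjusted p 0.204) in SH2 and 0.13 (edgeR adjusted p 0.813) in SH3, neither called. Of 13 eIF3 subunits tested in efficiency, 6 had positive and 7 negative changes in SH2, and 7 and 6 in SH3. The SH3 footprint call of EIF3B (-0.38) was lost in 11 of 14 alternatives. That of EIF3G (0.38, from 0.34 to 0.45 over the alternatives) was lost without SC replicate 3, SH3 replicate 1 or SH3 replicate 2. EIF3J footprints in SH2 (0.34, edgeR adjusted p 0.0642) were called with a replicate block (adjusted p 0.0317). EIF3D was called in SH3 RNA alone (0.28), lost in 6 of 14 alternatives. EIF3I and EIF3M were not called in any comparison with SC.

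**Figure D3:**
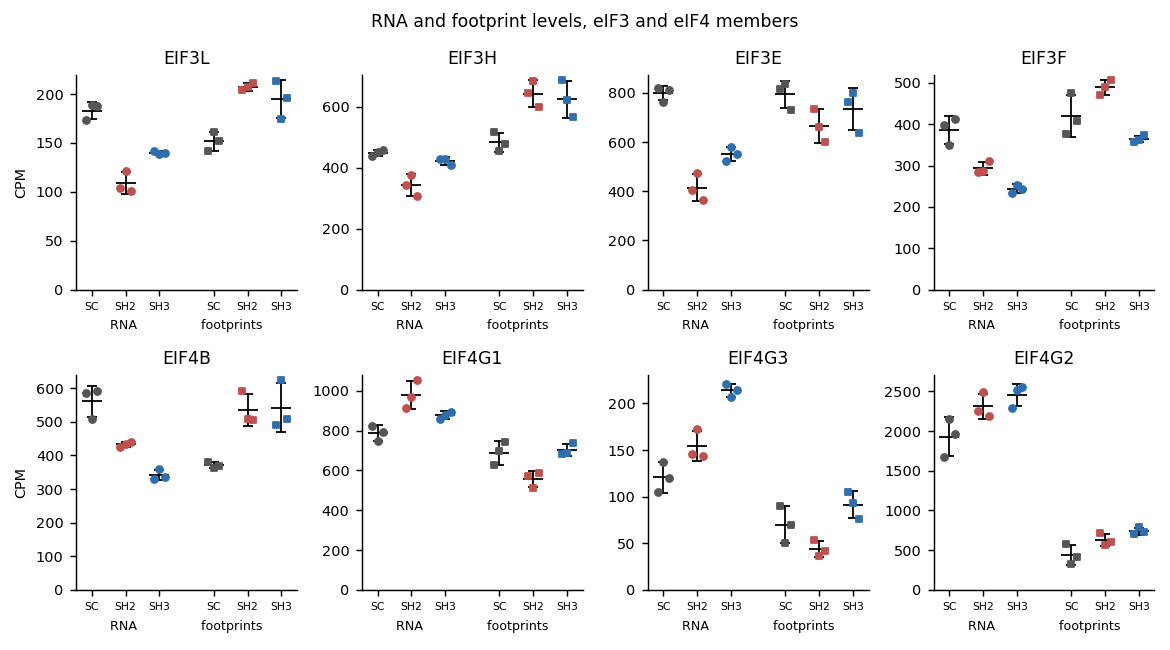
CPM of 8 eIF3 and eIF4 members in each library (points), with the group mean and SD (bars, n = 3), RNA as circles on the left of each panel and footprints as squares on the right, on linear axes from 0. In EIF3L, EIF3H and EIF4B the RNA points of the hairpins lie below SC while the footprint points lie above it, and in EIF4G1 the SH2 points lie above SC in RNA and below it in footprints.

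The eIF4 group acts at the mRNA cap. In RNA 7 of 8 members were called in SH2 (3 higher, 4 lower; background 61.4%) and 6 of 8 in SH3 (2 higher, 4 lower; background 53%). In footprints 6 of 7 were called in SH2 (2 higher, 4 lower; background 44.2%) and 5 of 7 in SH3 (2 higher, 3 lower; background 35.9%). EIF4B, which stimulates the helicase eIF4A, had RNA of 585, 508 and 591 CPM in SC, 426, 435 and 441 in SH2 and 331, 359 and 336 in SH3 and footprints of 379, 361 and 370.0 CPM in SC, 591, 509 and 505 in SH2 and 492, 625 and 509.7 in SH3. No hairpin library overlapped SC in either, with RNA below SC and footprints above. RNA changed by -0.37 (SE 0.09, edgeR adjusted p 0.00261) for SH2 and -0.71 (SE 0.09, edgeR adjusted p 2.28e-05) for SH3, footprints by 0.53 (SE 0.13, edgeR adjusted p 0.004) for SH2 and 0.55 (SE 0.13, edgeR adjusted p 0.00419) for SH3, and efficiency by 0.89 (SE 0.15, edgeR adjusted p 0.00294) for SH2 and 1.28 (SE 0.15, edgeR adjusted p 0.000302) for SH3. All 6 EIF4B calls held in all 14 alternatives. In SH3 this was the highest efficiency change of the 41 members.

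EIF4G1, the main scaffold that joins the cap-binding protein to eIF3, went the other way in SH2. Its RNA stood at 824, 746 and 791 CPM in SC, 915, 967 and 1054 in SH2 and 856, 881 and 894 in SH3, above SC in every hairpin library, and its footprints at 626, 697 and 742 CPM in SC, 574, 511 and 589 in SH2 and 685, 689 and 736 in SH3, with SH2 below SC and SH3 inside the SC range. RNA changed by 0.31 (SE 0.09, edgeR adjusted p 0.00763) for SH2 and 0.16 (SE 0.09, edgeR adjusted p 0.157) for SH3. Footprints changed by -0.30 (SE 0.12, edgeR adjusted p 0.0564) for SH2 and 0.03 (SE 0.12, edgeR adjusted p 0.864) for SH3, and the SH2 footprint change was called with a replicate block (adjusted p 0.0378). Efficiency changed by -0.63 (SE 0.14, edgeR adjusted p 0.0159) for SH2 and -0.11 (SE 0.14, edgeR adjusted p 0.804) for SH3. The SH2 efficiency call was lost without SC replicate 3 (adjusted p 0.0865) or SH2 replicate 3 (0.0687), and in a fit of the compared groups alone (0.0577).

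EIF4G3, its paralog, had RNA of 105, 138 and 119.8 CPM in SC, 146, 173 and 144 in SH2 and 221, 207 and 214 in SH3 and footprints of 90.4, 50.1 and 69.2 CPM in SC, 53.3, 36.1 and 41.4 in SH2 and 105, 93.5 and 75.7 in SH3. RNA rose by 0.35 (SE 0.11, edgeR adjusted p 0.013) for SH2 and 0.83 (SE 0.11, edgeR adjusted p 3.7e-05) for SH3, while footprints changed by -0.71 (SE 0.21, edgeR adjusted p 0.0113) for SH2 and 0.36 (SE 0.20, edgeR adjusted p 0.182) for SH3. SH2 footprints overlapped the lowest SC library, SC replicate 2. The SH3 footprint change was called with a replicate block (0.40, edgeR adjusted p 0.0461). Efficiency changed by -1.09 (SE 0.25, edgeR adjusted p 0.0183) for SH2 and -0.47 (SE 0.24, edgeR adjusted p 0.436) for SH3. The SH2 efficiency call was lost in 6 of 14 alternatives. The value was -0.75 without SC replicate 1 and -0.88 without SH2 replicate 2, where the SH2 calls in RNA and in footprints were lost too. It stayed near its size without SC replicate 3 (-1.10, edgeR adjusted p 0.076), without SH2 replicate 3 (-1.10, 0.0783), with a replicate block (-1.06, 0.0859) and in a fit of the compared groups alone (-1.08, 0.0536). EIF4G2, the relative that lacks the site for the cap-binding protein, rose in RNA from 1675, 2157 and 1960.2 CPM in SC to 2259, 2487 and 2189 in SH2 and 2294, 2516 and 2553 in SH3. EIF4G2 footprints stood at 571, 325 and 416 CPM in SC, 711, 560.4 and 604 in SH2 and 697, 788 and 729 in SH3. The changes were 0.26 (SE 0.11, edgeR adjusted p 0.0487) for SH2 and 0.35 (SE 0.11, edgeR adjusted p 0.0145) for SH3 in RNA and 0.51 (SE 0.17, edgeR adjusted p 0.0245) for SH2 and 0.75 (SE 0.17, edgeR adjusted p 0.00324) for SH3 in footprints, and its efficiency was not called (0.23 in SH2 and 0.41 in SH3). The RNA call in SH2 was lost in 11 of 14 alternatives, that in SH3 without SC replicate 1, SH3 replicate 2 or SH3 replicate 3, and the SH2 footprint call without SC replicate 2, SC replicate 3 or SH2 replicate 1. Of the scaffold genes, then, EIF4G1 and EIF4G3 had lower efficiency in SH2 and EIF4G2 did not pass the test.

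EIF4E, the cap-binding protein, fell. EIF4E RNA was counted at 94.6, 106 and 107 CPM in SC, 65.9, 71.6 and 57.1 in SH2 and 75.6, 76.8 and 78.2 in SH3, with every hairpin library below SC, and its footprints at 239, 204 and 224 CPM in SC, 166, 176 and 160.3 in SH2 and 149.9, 188 and 179 in SH3, again without overlap with SC. RNA changed by -0.66 (SE 0.10, edgeR adjusted p 6.38e-05) for SH2 and -0.42 (SE 0.10, edgeR adjusted p 0.00305) for SH3 and footprints by -0.41 (SE 0.13, edgeR adjusted p 0.0193) for SH2 and -0.36 (SE 0.13, edgeR adjusted p 0.0418) for SH3. The footprint calls were lost in 4 and 10 of 14 alternatives, the SH2 one without SC replicate 1, SC replicate 3, SH2 replicate 1 or SH2 replicate 3. EIF4E2, a related cap-binding protein known as a repressor, rose instead, with RNA of 22.6, 30.2 and 24.1 CPM in SC, 61.7, 54.6 and 62.8 in SH2 and 45.8, 39.5 and 47.0 in SH3 and changes of 1.22 (SE 0.12, edgeR adjusted p 1.77e-06) for SH2 and 0.78 (SE 0.12, edgeR adjusted p 0.000134) for SH3.

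EIF4A2, a helicase paralog of EIF4A1, fell in both measures. RNA levels of EIF4A2 were 731, 653 and 727 CPM in SC, 514, 567 and 517 in SH2 and 484, 489 and 509.7 in SH3 and its footprints at 544, 597 and 527 CPM in SC, 429.9, 379 and 370.0 in SH2 and 378, 418 and 350.2 in SH3. The changes were -0.40 (SE 0.09, edgeR adjusted p 0.00135) for SH2 and -0.51 (SE 0.09, edgeR adjusted p 0.000306) for SH3 in RNA and -0.50 (SE 0.13, edgeR adjusted p 0.00469) for SH2 and -0.54 (SE 0.13, edgeR adjusted p 0.00382) for SH3 in footprints. EIF4H, a helicase cofactor like eIF4B, fell without a called change in efficiency (-0.08 in SH2 and -0.06 in SH3). EIF4H footprints stood at 372, 313 and 324 CPM in SC, 206, 233 and 225 in SH2 and 243, 257 and 257 in SH3, and the changes were -0.54 in SH2 and -0.35 in SH3 in RNA and -0.61 (SE 0.13, edgeR adjusted p 0.00113) for SH2 and -0.41 (SE 0.13, edgeR adjusted p 0.0175) for SH3 in footprints. The SH3 footprint call was lost without SC replicate 1 or any SH3 replicate. The cofactors eIF4B and eIF4H thus had footprints that moved in opposite directions.

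EIF4A1, the principal helicase, was barely counted. Its RNA libraries held 7 to 16 counts each (0.408, 0.659 and 0.393 CPM in SC, 0.275, 0.376 and 0.284 in SH2 and 0.400, 0.587 and 0.498 in SH3) and its footprint libraries 0 or 1, so no change could be read and the footprints were not tested. RefSeq lists 13 pseudogenes with its name. EIF3C held 2 to 11 counts per RNA library, too few to test, but 11 to 66 per footprint library (6.66, 12.6 and 5.15 CPM in SC, 6.67, 6.06 and 5.83 in SH2 and 6.44, 22.6 and 16.1 in SH3). Its SH3 footprint change of 1.06 (SE 0.37, edgeR adjusted p 0.0342; 0.66 without SH3 replicate 2) was lost in 6 of 14 alternatives, among them the fits without SC replicate 1, SC replicate 3, SH3 replicate 2 or SH3 replicate 3. EIF3CL, a near-identical copy, had no entry among the genes counted. How reads that match several places were treated is not given in the sources used here, and its part in these values was not tested. Pseudogenes by name were also listed for members called above, 9 for EIF4B, 4 for EIF3E and 3 each for EIF3F and EIF3L, against 0 for EIF3H, EIF4G1 and EIF4G3.

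The first 20 transcribed bases at RefSeq's annotated starts (GRCh38.p14) are shown for the members that bear on the TOP reports, with capitals for the run of C and T from the first base. The start used in these cells was not measured. EIF3F and EIF4B had a called rise in efficiency, EIF3D, EIF3K, EIF3M and EIF4A2 have a similar start and no called efficiency change, and EIF4G1 and EIF4G3 had a called fall (1 of several annotated starts each).
EIF3F, chr11:7987337-7987356, plus strand: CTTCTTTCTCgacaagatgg
EIF4B, chr12:53006456-53006475, plus strand: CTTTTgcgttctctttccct
EIF3D, chr22:36529147-36529166, minus strand: CTCTTTTCCTggtttctcaa
EIF3K, chr19:38619188-38619207, plus strand: CTCTTCCTgttcccgtcctt
EIF3M, chr11:32583831-32583850, plus strand: CTTTTCCggtcggcgtggtc
EIF4A2, chr3:186783577-186783596, plus strand: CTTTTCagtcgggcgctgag
EIF4G1, chr3:184314606-184314625, plus strand: ggaaatggttgtggactacg
EIF4G3, chr1:21176878-21176897, minus strand: agccgtcctgccggactgct

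A start with C followed by 4 bases that are each C or T, read on the gene's own strand from the first base, was found in 9 of the 36 members with an entry used here, or 9 of 44 starts (20.5%), and in 4.07% of all 35116 annotated starts. The other 3 members with such a start are EIF2A, EIF2D and EIF2S3. Member starts on chromosome 8, where EIF3E and EIF3H lie, were left out, but that chromosome was not left out of the 35116 starts. EIF3L had no entry. Of the 9 members, 2 had a called efficiency change in SH2 and 1, EIF4B, in SH3, where 3.9% and 0.686% of all genes were called. The efficiency changes of those not called were -0.17 in SH2 and -0.15 in SH3 for EIF3D, -0.25 in SH2 and -0.19 in SH3 for EIF3K, -0.15 in SH2 and -0.14 in SH3 for EIF3M and -0.11 in SH2 and -0.02 in SH3 for EIF4A2. EIF2S3 changed by 0.54 in SH2 and 0.24 in SH3, EIF2A by 0.47 in SH2 and 0.33 in SH3 and EIF2D by -0.07 in SH2 and 0.14 in SH3. The called changes among members with such a start were rises. The remaining changes had both signs and were not called, so these values do not settle whether the members share a direction.

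EIF5, which triggers GTP hydrolysis on eIF2 and sets start codon stringency, rose most among members called with each hairpin. Its RNA stood at 304, 312 and 308 CPM in SC, 531, 621 and 553 in SH2 and 510.2, 605 and 605 in SH3 and its footprints at 267, 188 and 198 CPM in SC, 461, 407 and 393 in SH2 and 506, 569.7 and 476 in SH3. Every hairpin library lay above every SC library in both. The changes were 0.88 (SE 0.10, edgeR adjusted p 4.25e-06) for SH2 and 0.90 (SE 0.10, edgeR adjusted p 7.18e-06) for SH3 in RNA and 0.95 (SE 0.15, edgeR adjusted p 0.000126) for SH2 and 1.25 (SE 0.15, edgeR adjusted p 2.26e-05) for SH3 in footprints, all 4 calls holding in 14 of 14 alternatives, and efficiency was not called (0.05 in SH2 and 0.36 in SH3). EIF5B, the factor that joins the large subunit, rose in SH3 alone. EIF5B RNA was counted at 184, 167 and 169.7 CPM in SC, 168, 172 and 144 in SH2 and 246, 205 and 243 in SH3, its footprints at 186, 107 and 127 CPM in SC, 171, 184 and 159 in SH2 and 276, 265 and 228 in SH3. The SH3 changes were 0.42 (SE 0.10, edgeR adjusted p 0.00343) in RNA and 0.86 (SE 0.18, edgeR adjusted p 0.00141) in footprints, and the hairpins differed in RNA by -0.52 (SE 0.10, edgeR adjusted p 0.00121). EIF6, which keeps free large subunits from joining, rose in SH2 RNA (0.46 (SE 0.12, edgeR adjusted p 0.0034)). EIF6 footprints did not rise with it. They overlapped SC in SH2 and lay below every SC library in SH3, and neither change was called. A replicate block called the SH3 footprint fall (-0.40, edgeR adjusted p 0.0292) and a rise in SH3 RNA (0.28, edgeR adjusted p 0.0463). EIF6 efficiency changed by -0.47 in SH2 and -0.65 in SH3, neither called, the latter the lowest of the 41 members in SH3. ABCE1, the recycling factor that splits ribosomes, was not called against SC, at -0.25 in SH2 RNA (edgeR adjusted p 0.0517), and passed with a replicate block (adjusted p 0.0248).

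DENR and MCTS1 form a dimer that recycles the small subunit and allows reinitiation. DENR RNA stood at 170.0, 174 and 189 CPM in SC, 52.6, 77.2 and 57.1 in SH2 and 138, 154 and 150.4 in SH3 and its footprints at 226, 155 and 177 CPM in SC, 70.0, 61.8 and 76.7 in SH2 and 166, 151 and 133 in SH3. SH2 lay far below the other groups in both. The changes were -1.51 (SE 0.13, edgeR adjusted p 4.02e-07) for SH2 and -0.27 (SE 0.12, edgeR adjusted p 0.0849) for SH3 in RNA and -1.43 (SE 0.16, edgeR adjusted p 6.77e-06) for SH2 and -0.32 (SE 0.16, edgeR adjusted p 0.122) for SH3 in footprints, and SH2 against SH3 gave -1.24 (SE 0.13, edgeR adjusted p 6.65e-06) in RNA. DENR had the deepest fall of all members in SH2, in RNA and in footprints. MCTS1 footprints stood at 70.1, 62.3 and 63.6 CPM in SC, 77.8, 67.1 and 73.5 in SH2 and 37.5, 36.3 and 34.4 in SH3, where SH3 lay apart from the rest. The footprint changes were 0.15 (SE 0.14, edgeR adjusted p 0.393) for SH2 and -0.86 (SE 0.15, edgeR adjusted p 0.000325) for SH3, with a difference between hairpins of 1.01 (SE 0.15, edgeR adjusted p 0.000157). MCTS1 RNA stood at 78.3, 83.5 and 80.1 CPM in SC, 77.0, 85.8 and 62.2 in SH2 and 64.1, 69.3 and 61.3 in SH3, called in SH3 (-0.31 (SE 0.11, edgeR adjusted p 0.0311); lost without SC replicate 2, SC replicate 3 or SH3 replicate 3). DENR thus fell most in SH2 and MCTS1 in SH3, but the split was not clean. DENR RNA in SH3 also lay below every SC library, and that change was called with a replicate block (-0.27, edgeR adjusted p 0.0383).

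**Figure D4:**
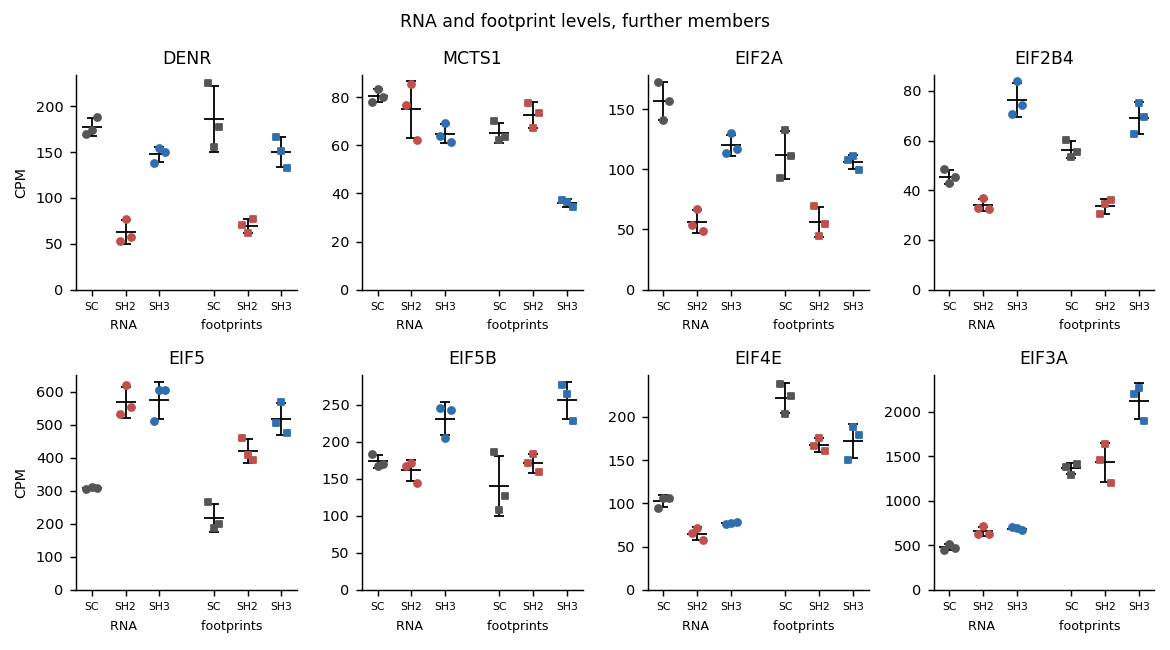
CPM of 8 members in each library (points), with the group mean and SD (bars, n = 3), RNA as circles on the left of each panel and footprints as squares on the right, on linear axes from 0. DENR and EIF2A are low in SH2, MCTS1 footprints are low in SH3, EIF2B4 lies below SC in SH2 and above it in SH3, and EIF5 lies above SC with each hairpin.

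EIF2A, a single-chain protein that can bind initiator tRNA and is distinct from eIF2, also differed by hairpin. RNA levels of EIF2A were 172, 141 and 157 CPM in SC, 53.7, 67.1 and 48.3 in SH2 and 113, 129.8 and 117 in SH3 and its footprints at 92.7, 133 and 111 CPM in SC, 69.2, 44.8 and 54.7 in SH2 and 108, 111 and 99.2 in SH3. The changes were -1.48 (SE 0.12, edgeR adjusted p 3.96e-07) for SH2 and -0.39 (SE 0.12, edgeR adjusted p 0.0152) for SH3 in RNA and -1.0 (SE 0.17, edgeR adjusted p 0.000295) for SH2 and -0.07 (SE 0.17, edgeR adjusted p 0.77) for SH3 in footprints. SH2 against SH3 gave -1.09 (SE 0.12, edgeR adjusted p 1.63e-05) in RNA and -0.92 (SE 0.18, edgeR adjusted p 0.0015) in footprints. PAIP1, which links poly(A)-binding protein to eIF4A and eIF3, rose in RNA from 147, 172 and 158 CPM in SC to 209, 243 and 216 in SH2 and 196, 218 and 210.3 in SH3 (0.49 (SE 0.10, edgeR adjusted p 0.000554) for SH2 and 0.39 (SE 0.10, edgeR adjusted p 0.00369) for SH3). DHX29, a helicase for structured leaders, fell in SH2 RNA (-0.39 (SE 0.10, edgeR adjusted p 0.00311)) and stood at -0.00 in SH3. EIF2D, a relative of the DENR and MCTS1 pair, was not called in any comparison.

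The direct comparison of the hairpins called 15 of 41 members in RNA, 4 higher and 11 lower in SH2 (background 39.3%, 18.9% higher and 20.4% lower), and 10 of 41 in footprints, 2 higher and 8 lower (background 23.8%, 12.1% higher and 11.6% lower). In RNA the largest differences were in DENR, EIF2B4 and EIF2A, all lower in SH2. In footprints EIF4G3 differed by -1.07 (SE 0.21, edgeR adjusted p 0.00193). For translational efficiency edgeR called 0 of 41 members between SH2 and SH3 (background 0.016%), with 7 at an unadjusted p under 0.05 (background 11.7%), and the DESeq2 Wald test called 4.

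Of 33 regulators and relatives of the initiation factors, 32 had an entry. In RNA 15 of 29 tested were called in SH2 (5 higher, 10 lower; background 61.4%) and 16 of 29 in SH3 (9 higher, 7 lower; background 53%). In footprints 14 of 27 were called in SH2 (4 higher, 10 lower; background 44.2%) and 12 of 27 in SH3 (6 higher, 6 lower; background 35.9%), so these shares lie near those of all genes. Their median RNA changes were -0.20 in SH2 and 0.09 in SH3. The highest SH2 RNA changes were in PPP1R15A, which directs dephosphorylation of eIF2 alpha, with 1.27 (SE 0.20, edgeR adjusted p 8.63e-05), and in EIF4E2. PPP1R15A RNA stood at 387, 188 and 225 CPM in SC, 662, 596 and 674 in SH2 and 389, 484 and 421 in SH3, with SC replicate 1 well above the other SC libraries, and its SH3 change was 0.69. The deepest SH2 falls were in PAIP2, an inhibitor of poly(A)-binding protein, with -1.88 (SE 0.14, edgeR adjusted p 1.65e-07), and in EIF4E3 (-1.61), the latter below 1 CPM in every library. In SH3 the highest were PAIP2B (1.61, below 2 CPM in every RNA library) and EIF4E2 (0.78), and the lowest EIF4E3 (-1.44) and EIF5A2 (-1.43), a relative of the elongation factor eIF5A.

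PAIP2 moved in opposite directions, with RNA of 64.0, 82.5 and 74.0 CPM in SC, 18, 25 and 17.1 in SH2 and 108, 97.1 and 100.3 in SH3 and an SH3 change of 0.47 (SE 0.13, edgeR adjusted p 0.0093). Efficiency was called in 1 of 28 of the 33 regulators and relatives with each hairpin (background 3.9% in SH2 and 0.686% in SH3). MKNK2, a kinase that phosphorylates eIF4E on the eIF4G scaffold, was lower in SH2 (-0.83 (SE 0.22, edgeR adjusted p 0.0392)), with RNA of 185, 157 and 174 CPM in SC, 245, 219 and 284 in SH2 and 179, 172 and 186 in SH3 and footprints of 39.5, 32.9 and 36.2 CPM in SC, 23.7, 26.6 and 40.1 in SH2 and 21.7, 23.6 and 31.2 in SH3. PPP1R15B, the constitutive partner of the eIF2 alpha phosphatase, was higher in SH3 (0.78 (SE 0.16, edgeR adjusted p 0.025)) and stood at 0.55 (SE 0.16, edgeR adjusted p 0.0582) in SH2. PPP1R15B footprints stood at 86.5, 121 and 93.4 CPM in SC, 162, 168 and 172 in SH2 and 151, 177 and 151 in SH3, with every hairpin library above SC.

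In the scramble control the members differed in footprints per RNA. This ratio, the mean SC footprint CPM over the mean SC RNA CPM, depends on the gene as well as on translation, since footprints cover the coding part and RNA reads the whole transcript. Its quartiles over 12519 genes were 0.458, 0.812 and 1.28, and 28 of 40 members lay above that median (EIF3C and EIF4A1 left out). The lowest was EIF4G2 at 0.227, with 8.8% of genes below it, followed by EIF2D at 0.316. The highest was EIF3A at 2.84, with 97.9% of genes below it, followed by EIF1AX at 2.51, EIF4H at 2.5 and EIF3B at 2.39. Medians by group were 1.78 for eIF2, 1.24 for eIF2B, 1.35 for eIF3 and 0.79 for the eIF4 group, whose members ran from 0.227 to 2.5. The members called higher in efficiency in SH2 lay at 0.829 (EIF3L), 1.08 (EIF3H), 0.994 (EIF3E), 1.09 (EIF3F) and 0.66 (EIF4B). In SH2 these ratios stood at 1.91, 1.87, 1.61, 1.67 and 1.23, and in SH3 at 1.39, 1.48, 1.33, 1.49 and 1.59. The SC ratios of these 5 members thus lay between the quartiles of all genes.

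**Figure D5:**
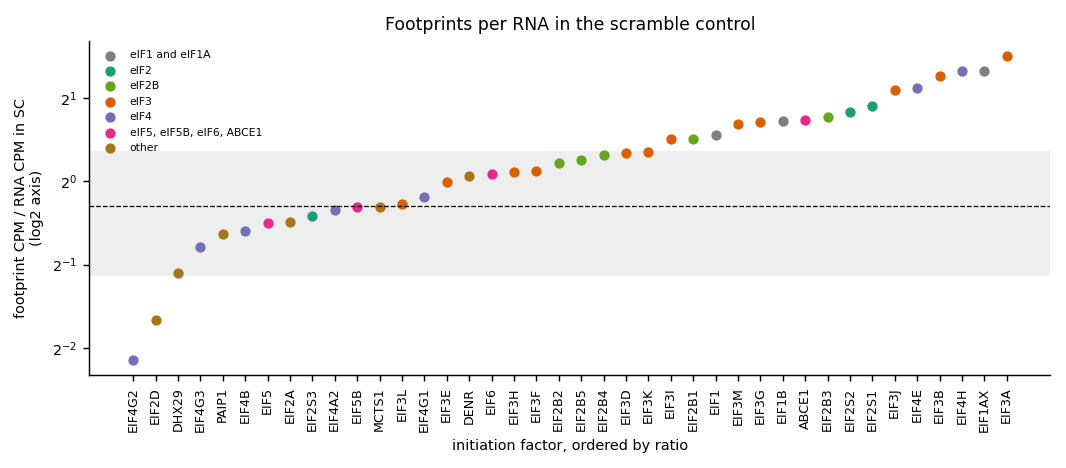
Footprint CPM over RNA CPM in SC for 40 initiation factors, each point the ratio of 2 means of 3 libraries, coloured by role group, on a log2 axis. The dashed line is the median of 12519 genes and the grey band their middle quartiles, and the points run from EIF4G2 at 0.227 to EIF3A at 2.84.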

How the data were processed

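RNA and ribosome footprints were measured in 18 libraries of MDA-MB-231 cells, in 6 groups of 3. The deposited table holds the authors' raw counts, whole numbers for each gene in each library. Its normalized signal columns are counts divided by size factors, per the file headers. Its log2 fold changes and p-values come from the authors' own comparisons with DESeq2, per the file headers. The submitters' processing notes name Bowtie 1.2.2 and DESeq2. The genome build, the annotation and the treatment of reads that match several places are not given in the sources used here. Reads that match several places or pseudogenes can move counts between genes.

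The deposited counts were tested with edgeR 4.0.16 in R 4.3.3: filterByExpr, TMM factors and two-sided quasi-likelihood tests, with Benjamini-Hochberg adjustment over all genes tested. The 9 RNA libraries formed 1 fit and the 9 footprint libraries another. Translational efficiency was tested over all 18 libraries as the footprint change minus the RNA change. The standard error (SE) is the absolute log2 change over the square root of F. The 95% intervals are the change plus or minus 1.96 SE. Levels are CPM as mean ± SD or per library. The edgeR steps were tested on simulated data with 200 genes changed by a log2 of 1. In RNA 93.5% of these were called in SH2 and 91.5% in SH3, and in footprints 83% and 77.5%. In translational efficiency 29.5% and 30.5% were called. Alternatives were DESeq2 1.42.0 (its size factors or its Wald test), no filter, only the groups compared, a replicate block, and each replicate of each treatment left out in turn. In the efficiency fit, the RNA and the footprint library of that number were left out together. Replicates differed by more than counting noise (chi-square per degree of freedom 3.55 to 58.7), so all were kept.

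The members and lists were chosen with earlier results of these data known. All 42 members could be named, in order of role, with library values for those called in the same direction with each hairpin or called in efficiency, for EIF4E, EIF4G1, EIF4A1, EIF2S1, EIF2B5 and EIF3A, and for those at the ends of their group. The values of EIF2B4, EIF5B, DENR, MCTS1 and PAIP2 were added after they were seen. The 33 regulators were named by their efficiency calls and their 2 largest RNA changes in each direction. Same-numbered SC and SH2 libraries deviated together (correlation of deviations 0.315 to 0.370 in RNA and 0.116 to 0.153 in footprints), so a block value is given beside results of SH2 against SC whose call it changes. Between SC and SH3 these correlations had both signs, from -0.0993 to 0.265 in RNA and from -0.0337 to 0.106 in footprints. The calls that a block changed in SH3 and in SH2 against SH3 are listed below. Sequences are from RefSeq, GRCh38.p14, matched by symbol for 36 members, with member starts on chromosome 8 left out.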

Additional observations from a re-analysis of the deposited data

Results flagged for a closer look

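EIF2B4 RNA moved in opposite directions with the hairpins, and the difference between SH2 and SH3 was itself called (log2 difference -1.16, SE 0.10, edgeR adjusted p 2.03e-06). All 3 SH2 libraries lay below SC and all 3 SH3 libraries above it, and the call held in all 14 alternatives. PAIP2, an inhibitor of poly(A)-binding protein and not one of the 42 members, did the same in RNA (-2.35, SE 0.14, edgeR adjusted p 9.24e-08) and in footprints (-2.57, SE 0.18, edgeR adjusted p 2.73e-07). PAIP2 footprints stood at 229, 173 and 173 CPM in SC, 38.9, 53.1 and 49.9 in SH2 and 347, 254 and 246 in SH3.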

How the results depend on the processing

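Of 120 called member changes, 78 kept direction and call in all 14 alternatives, 42 lost the call in at least 1, and 0 reversed. With each replicate left out in turn (its RNA and footprint libraries together in the efficiency fit), members called in RNA numbered 23 to 28 in SH2, 19 to 26 in SH3 and 12 to 18 in SH2 against SH3. In footprints they numbered 13 to 20, 9 to 16 (9 without SC replicate 3, SH3 replicate 1 or SH3 replicate 2) and 6 to 11 (6 without SH2 replicate 3 or SH3 replicate 2). In translational efficiency they numbered 3 to 7 (3 without SC replicate 3 or SH2 replicate 3), 1 to 4 (4 without SC replicate 1, and 1 without SC replicate 3 or any SH3 replicate) and 0 to 1 (1 without SC replicate 1). Fitting only the groups compared called 3 members in efficiency in SH2. The DESeq2 Wald test called 6 in SH3 and 4 in SH2 against SH3. The cause was not tested.

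A replicate block, with the number as a lysate in the efficiency fit, called 29, 27 and 19 members in RNA, 21, 19 and 13 in footprints, and 5, 1 and 0 in efficiency, in the order SH2, SH3 and SH2 against SH3. The efficiency calls that it left out were EIF3F (0.61, edgeR adjusted p 0.0678) and EIF4G3 (-1.06, edgeR adjusted p 0.0859) in SH2 and EIF3L (0.76, edgeR adjusted p 0.0634) in SH3. RNA and footprint libraries with the same number correlated from -0.354 to 0.295 in their deviations, so the numbers were not taken to pair them. In RNA and footprints of SH2 against SC the block changed no call other than ABCE1, EIF2B1, EIF3J and EIF4G1, given with the results, as are the efficiency calls. In SH3 against SC it added DENR, EIF1B and EIF6 in RNA and EIF2S2, EIF4G3 and EIF6 in footprints (edgeR adjusted p 0.0286 to 0.0463). In SH2 against SH3 it added EIF1B, EIF2S3, EIF3M and EIF4E in RNA and EIF4G1, EIF6 and PAIP1 in footprints. Plain library totals moved 22 of 252 group levels by over 1 SD, by factors of 0.957 to 1.03, and the median level from 213.5 to 215.7 CPM. Low counts limit EIF4A1 (7 to 16 per RNA library) and EIF3C (2 to 11). The cause was not tested.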

Other observations

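In the authors' deposited table, the columns named RD hold the same log2 fold change, p-value and adjusted p for SH2 and for SH3 in 17017 of 17017 genes. Over 41 members, the RD log2 fold changes of the authors' deposited table differed from the edgeR efficiency changes of SH3 by a median of 0.00159 and at most 0.0985. From those of SH2 they differed by a median of 0.161 and at most 0.87. RD values were therefore not used for SH2.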
